A study of Brassica napus with 23 samples.

Results

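In roots of oilseed rape, 233 genes stood at least 2-fold higher in roots treated with the bacterium PA23 than in control roots at 24 h, and also stood at least 2-fold higher in control roots at 7 d than in control roots at 24 h. They were chosen from the deposited counts as CPM (counts scaled to the same total in each library), averaged over the root libraries with at least 2000000 counts, with 0.5 CPM added before the log2 ratio and with a PA23 24 h mean between 2 and 300 CPM. They are 233 of 101040 gene IDs (0.231%), and 233 of the 42821 genes with a PA23 24 h root mean in that range (0.544%), which are called the level window below. Both ratios were taken over the same pair of 24 h control libraries, so a low value in those 2 libraries raises both ratios. The values of these root contrasts chose the genes and are given as a description, without a test. The name under which the genes were collected, root genes raised early by PA23, held at the level of single libraries for 108 of the 233, which were at least 2-fold over the control mean in each of the 3 PA23 libraries at 24 h.

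Pseudomonas chlororaphis is a soil bacterium that colonises roots and makes antifungal phenazine compounds, and strain PA23 is known as a biocontrol agent of fungal disease in this crop. A young root changes its set of transcripts as it ages, because cells leave the meristem, differentiate and lignify or suberise, and lateral roots form. Beneficial bacteria on a root can alter defence, transport and cell wall transcripts without causing disease. Brassica napus is an allotetraploid with an A and a C subgenome, so most genes exist as near-identical copies, and the sources used here do not say how reads shared by such copies were assigned.

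Total RNA was sequenced from roots and shoots of plants that received 15 mL of a PA23 culture or LB broth, the growth medium without the bacterium, and that were harvested 24 h or 7 d later. There were 3 libraries each of PA23-treated roots at 24 h, PA23-treated roots at 7 d and control roots at 7 d, 2 of control roots at 24 h (labelled replicates 2 and 3), and 3 each of PA23-treated and control shoots at each harvest. The labels say that plants were treated 7 days after planting and grown for 14 days, and give this for the 24 h harvest too, so the age of those plants is uncertain. They do not say whether replicates came from separate plants, so p-values cover only the variation from library to library, some of which may be technical.

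Total counts ran from 621894 to 721351307 per library, and 6 libraries, each in a different group, held fewer than 2000000. In roots the shallow libraries were replicate 3 of the PA23 and control groups at 7 d, and neither entered the choice of the genes. The deepest library by far was PA23 24 h root replicate 1, with 5.57 times the counts of the next. It also differs in its labels: its library name begins with NS.1514 and its bracketed number with 2, while PA23 24 h root replicates 2 and 3 begin with NS.1522 and 1. Among shoots, PA23 7 d replicate 2 (a shallow library) stood apart from replicates 1 and 3 in the genes described here. The gene IDs carry no gene names in the deposited table, and 3 of the 233 (1.29%) had an entry in RefSeq's gene table for assembly Da-Ae, with no description. No gene function and no tissue marker could therefore be assigned, and genes are given by ID with the coordinates of the deposited table, whose build the sources used here do not name. CPM values are not divided by gene length, so levels are compared within a gene, and sums and medians over the gene set are compared between libraries.

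Summed over the 233 genes, the level was 6630, 5431 and 5416 CPM in PA23-treated roots at 24 h (replicates 1, 2 and 3), against 1960 and 1949 CPM in control roots at 24 h. At 7 d it was 7779, 6564 and 9009 CPM in PA23-treated roots, against 6171, 9708 and 8275 CPM in control roots. The controls at 24 h were the low group, and the other 3 root groups overlapped with one another, with the 24 h PA23 libraries at the lower end. The shallow 7 d libraries, which the choice of genes did not use, gave the values of 9009 and 8275 CPM. In the shallow PA23 library 142 members (60.9%) were at least 2-fold over the 24 h control mean, against 8.79% of the level window, and in the shallow control library 169 (72.5%), against 9.53%; these ratios still share the 24 h controls with the rule. The median of the level window was nearly level over the same 11 root libraries, at 9.65 to 10.5 CPM. In whole-root RNA, fewer cells of a kind and less RNA per cell cannot be told apart.

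**Figure D1:**
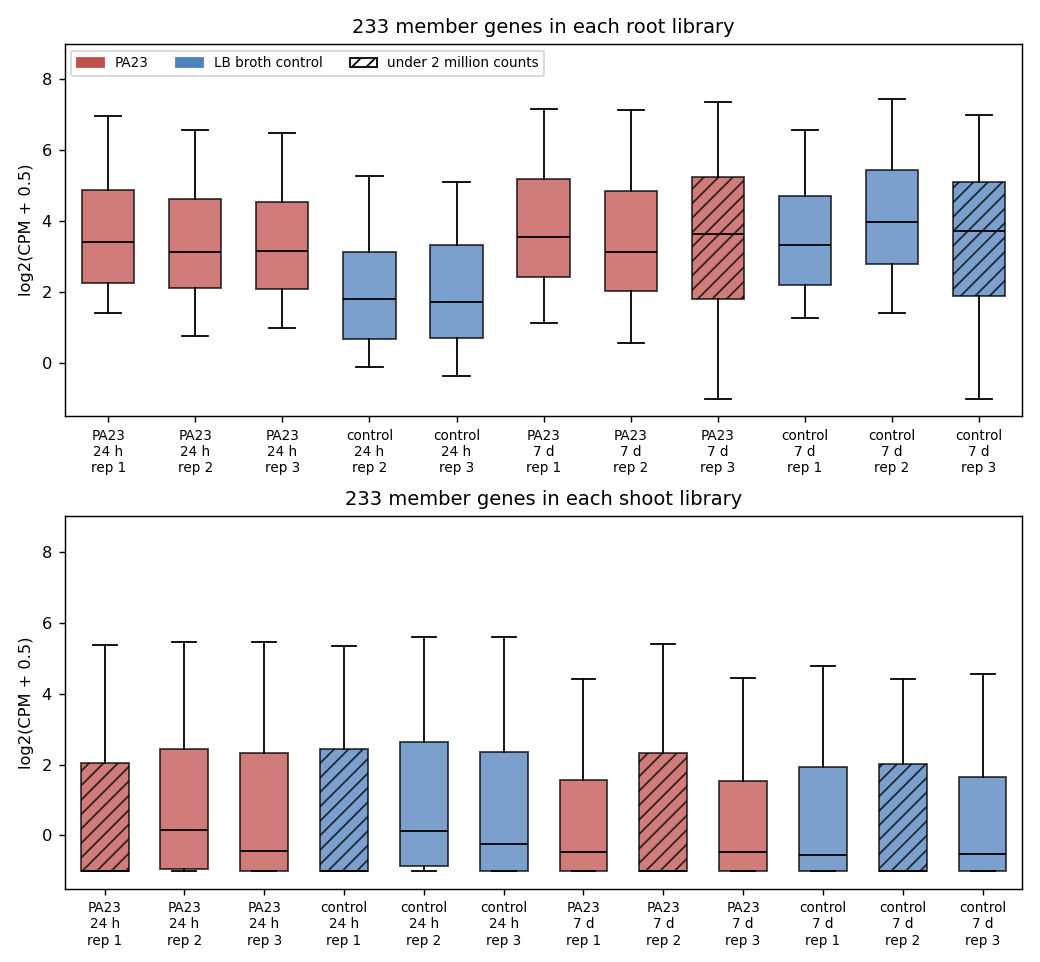
Levels of the 233 genes in each root library (top) and each shoot library (bottom), as log2(CPM + 0.5). Boxes span the middle 50% of genes with the median as a line, whiskers run to the outer 5% on each side, red is PA23, blue is LB broth control, and hatching marks libraries under 2000000 counts. The 2 control root libraries at 24 h have the lowest root medians (2.99 and 2.80 CPM), and the shallow shoot libraries have medians at 0 counts.

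At 24 h the median gene stood at a log2 ratio of 1.39 for PA23 over control (middle 50% of genes 1.16 to 1.78, highest 4.73), against a median of 0.02 in the level window. For control roots at 7 d over 24 h the median log2 ratio was 1.65 (middle 50% 1.22 to 2.34, highest 4.80), against 0.02 in the window. The PA23 24 h mean reached or passed the control 7 d mean for 83 of the 233 genes and stayed below it for the others. For 208 genes (89.3%) the lowest PA23 24 h library lay above the highest control at 24 h, which also held for 26.6% of the level window. For 222 genes (95.3%) the lower of the 2 deep control libraries at 7 d lay above both at 24 h, which also held for 24.2% of the window. These shares follow from the choice of the genes and nothing is read from them. The thresholds cut through a continuous range of values: 42 members had a PA23 ratio less than 0.1 above the threshold of 1, and 51 genes that met the other conditions lay less than 0.1 below it. For the ratio with time the same counts were 22 members and 43 other genes. A further 35 genes met both ratios but had a PA23 24 h mean under 2 CPM, and 1 gene lay above 300 CPM, at 420 CPM.

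The 3 PA23 libraries at 24 h did not contribute alike. At least 2-fold over the control mean were 172 members in replicate 1, 175 in replicate 2 and 178 in replicate 3, and 108 members in all 3. Replicates 2 and 3 moved together: 0 members were 2-fold in replicate 3 alone and 2 in replicate 2 alone, while 47 members were 2-fold in replicate 1 alone and 59 in replicates 2 and 3 but not in 1. In 16 members (6.87%) replicate 1 lay more than 10 times above the mean of the other two, from 10.5 to 59.8 times, against 0.297% of the level window, and in 0 members did replicate 2 or 3 lie more than 10 times above the others. The rule took the mean of the 3 libraries, so genes high in replicate 1 alone could pass it. The larger share of such genes among members therefore follows in part from the choice, and nothing is read from it. Without replicate 1 the same rule gave 206 genes, 173 of them among the 233. Whether depth, library label or plants account for the difference between these libraries was not tested, and in this group replicate 1 is the only library with its label prefix.

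**Figure D2:**
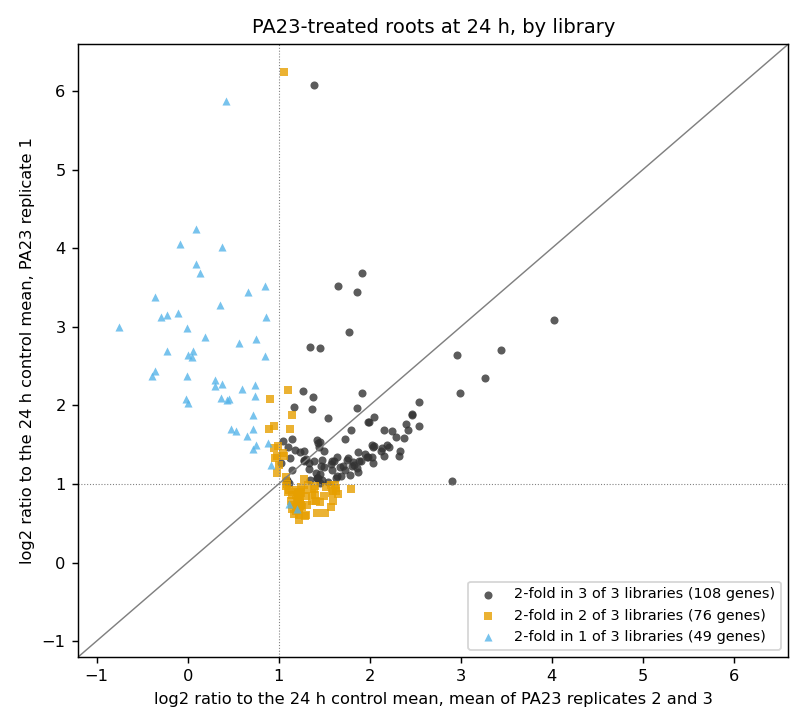
Each of the 233 genes by its log2 ratio to the 24 h control mean in PA23 root replicates 2 and 3 (horizontal, mean of both) and in replicate 1 (vertical), at 24 h. Dotted lines mark 2-fold and the grey line equal values; 108 genes are past 2-fold in all 3 libraries, 76 in 2 and 49 in 1, and the upper left holds genes high in replicate 1 alone. The empty lower left corner follows from the rule that chose the genes.

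The 2 genes with the highest ratios at 24 h were high in replicate 1. BnaA09g07780D (chromosome A09, 3795728 to 3796784), the highest by PA23 over control, had 44.8, 0.679 and 0.82 CPM in the PA23 replicates 1, 2 and 3 at 24 h, against 0.131 and 0.0664 CPM in controls. Its log2 ratio of 4.73 became 1.06 without replicate 1. At 7 d it was low in all roots, at 0.543, 0.411 and 0 CPM with PA23, against 0.859, 0.699 and 0 CPM in controls. BnaA01g03680D (A01, 1729353 to 1735454) came next, with 309, 10.8 and 12.2 CPM with PA23 at 24 h, against 5.15 and 2.99 CPM in controls, and its log2 ratio of 4.61 became 1.39 without replicate 1. At 7 d it had 11.3, 7.69 and 0 CPM with PA23, against 9.79, 14.4 and 17.7 CPM in controls, so the value of 309 CPM was far above every other root library.

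The 3 genes found in the RefSeq table are of the same kind. BnaC05g15160D (C05, 9015439 to 9016566) had 134, 7.47 and 6.70 CPM with PA23 at 24 h, against 3.47 and 9.72 CPM in controls, and 44.0, 48.1 and 47.9 CPM with PA23 at 7 d, against 23.5, 42.8 and 22.5 CPM in controls. BnaA06g13740D (A06, 7320822 to 7321968) had 228, 30.8 and 36.0 CPM with PA23 at 24 h, against 40.2 and 47.1 CPM in controls, and 142, 122 and 143 CPM with PA23 at 7 d, against 80.5, 158 and 109 CPM in controls. BnaA09g44170D (A09, 30367249 to 30369371) had 9.80, 1.12 and 1.22 CPM with PA23 at 24 h, against 1.13 and 1.06 CPM in controls. In each of the 3, PA23 replicates 2 and 3 lay at or near the controls. Without replicate 1 their log2 ratios were 0.10, -0.38 and 0.06, so the direction of BnaA06g13740D turned, whereas with all libraries they were 2.81, 1.16 and 1.51.

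The genes with the largest increase over time in controls were high in every PA23 library at 24 h. BnaA05g36800D (A05_random, 2701212 to 2703949) had 7.06, 13.1 and 11.3 CPM with PA23 at 24 h, against 0.589 and 0.730 CPM in controls. At 7 d it had 30.3, 47.1 and 52.9 CPM with PA23, against 21.5, 42.3 and 25.7 CPM in controls. The PA23 libraries at 24 h thus lay between the 24 h controls and all 7 d libraries, with no overlap. BnaC03g02770D (C03, 1375065 to 1376179) had 9.95, 21.1 and 17.8 CPM with PA23 at 24 h, against 0.786 and 0.664 CPM in controls. At 7 d it had 25.4, 17.8 and 53.9 CPM with PA23, against 29.2, 37.1 and 3.22 CPM in controls, where the value of 3.22 CPM is from the shallow replicate 3 and rests on 2 counts. Their log2 ratios of PA23 over control at 24 h were 3.24 and 3.78, and those of control 7 d over 24 h were 4.80 and 4.78.

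Members can be set apart by which PA23 libraries at 24 h were high, and their levels at 7 d given for each set. The 108 genes that were 2-fold in all 3 PA23 libraries had medians of 8.73 CPM with PA23 and 2.45 CPM in controls at 24 h, and of 10.6 CPM with PA23 and 14.4 CPM in controls at 7 d. The 47 genes 2-fold in replicate 1 alone had medians of 8.68 CPM with PA23 and 2.68 CPM in controls at 24 h, and of 8.05 CPM with PA23 and 9.63 CPM in controls at 7 d. The 59 genes 2-fold in replicates 2 and 3 but not in 1 had medians of 11.4 CPM with PA23 and 4.68 CPM in controls at 24 h, and of 19.1 CPM with PA23 and 19.3 CPM in controls at 7 d. Between 24 h and 7 d the PA23 mean was higher at 7 d in 46 of these 59 genes, in 51 of the 108 and in 16 of the 47. These sets were formed after their values were seen and were given no test.

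Within the libraries that share a label prefix, the PA23 ratio at 24 h was at least 2-fold for 161 members under NS.1514 (PA23 replicate 1 against control replicate 3) and for 156 under NS.1522 (PA23 replicates 2 and 3 against control replicate 2), and for 84 members under both. In the level window the same shares were 3.96%, 1.52% and 0.474%. The ratio of control 7 d over 24 h was at least 2-fold for 172 members (73.8%) under NS.1514, against 2.4% of the window, and for 211 (90.6%) under NS.1522, against 4.43%. Counts of called genes were taken from edgeR's quasi-likelihood test over all 63551 root genes tested, with a Benjamini-Hochberg adjusted p under 0.05, and all 233 members passed its filter. At 24 h 42 members were called higher with PA23 and 0 lower, where 0.268% of all genes were called, 0.146% higher and 0.121% lower. When PA23 replicates 2 and 3, the closest pair of root libraries, were summed, 9 members were called, and 0.0411% of all genes. Between 7 d and 24 h in controls 118 members were called higher and 0 lower, where 1.72% of all genes were called, 1.27% higher and 0.452% lower. Since these contrasts chose the genes, nothing is read from these counts. The 24 h count dropped to 6 on leaving out control replicate 2, PA23 replicate 2 or PA23 replicate 3, and to 14 on leaving out control replicate 3. The count with time was 45 and 61 without control 24 h replicates 2 and 3, and 76 without control 7 d replicate 2. These fits called from 0.024% to 0.135% of all genes at 24 h and from 0.457% to 0.914% with time.

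At 7 d the PA23-treated roots no longer stood above the controls in these genes. The mean over the deep libraries was higher with PA23 in 73 of 233 genes (31.3%), against 50.5% of the level window, and the median log2 ratio was -0.21, against 0.00 in the window. The choice took genes with high 7 d controls, so the comparison is a description. One gene (1 of 233, 0.429%) was at least 2-fold higher with PA23 at 7 d, against 0.084% of the window. At least 2-fold lower were 15 members (6.44%), against 0.42% of the window. In edgeR's test 0 of 233 members were called, as were 0% of all genes (percentage of 63551 genes), while 31 members (13.3%) had an unadjusted p under 0.05, against 6.97% of all genes, and DESeq2 called 2 members, both lower, where it called 0.259% of all genes, 0.164% lower. Leaving out PA23 7 d replicate 1 gave 12 calls (5.15%), all lower, in a fit where 0.866% of all genes were called, 0.771% lower and 0.0949% higher. Leaving out control 7 d replicate 2 gave 4 calls (1.72%), of which 2 were higher and 2 lower, where 0.13% of all genes were called. The median over the genes in the fit was -0.20 with all libraries and 0.10 without control 7 d replicate 2, the library with the highest sum, so its sign rested on that library. All PA23 7 d root libraries belong to prefix NS.1522, where control replicate 2 is the only 7 d control. Within that prefix, over the deep libraries, 30 members (12.9%) were higher with PA23, against 47.7% of the window. This share rests on that 1 control library, which was used to choose the genes.

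In PA23-treated roots members lay on both sides between 24 h and 7 d, and the balance depended on PA23 24 h replicate 1. The 7 d mean was above the 24 h mean for 118 of 233 genes (50.6%), against 51.8% of the level window, and the median log2 ratio was 0.03, against 0.02 in the window. The spread was wide. At 7 d 42 members were at least 2-fold higher and 33 at least 2-fold lower, against 1.63% and 2.84% of the window. In the fit 29 members were called higher at 7 d and 8 lower, where 7.06% of all genes were called, 2.78% higher and 4.28% lower (edgeR, adjusted p under 0.05). The 24 h libraries of this contrast chose the genes, so these counts are a description too. The median log2 fold change in the fit was -0.08, with 111 of 233 members above 0 (47.6%, and 47.7% of all genes). Without PA23 24 h replicate 1 it was 0.37, with 145 above 0 (62.2%, and 50.0% of all genes). Without PA23 7 d replicate 2 it was 0.11, with 126 above 0. With the replicate number as a block it was 0.07, with 120 above 0 and 42 calls. The total of 37 calls was 14 without PA23 24 h replicate 2, 19 without PA23 24 h replicate 3 and 15 without PA23 7 d replicate 2, in fits that called 2.49%, 2.57% and 1.6% of all genes. It was 21 with the label prefix as a covariate and 59 with DESeq2, which called 3.66% and 6.89% of all genes. At 7 d the PA23 mean was at least 2-fold over the 24 h control mean for 164 members (70.4%), against 2.24% of the level window. This ratio shares the 24 h controls with the rule, so the share is a description.

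**Figure D3:**
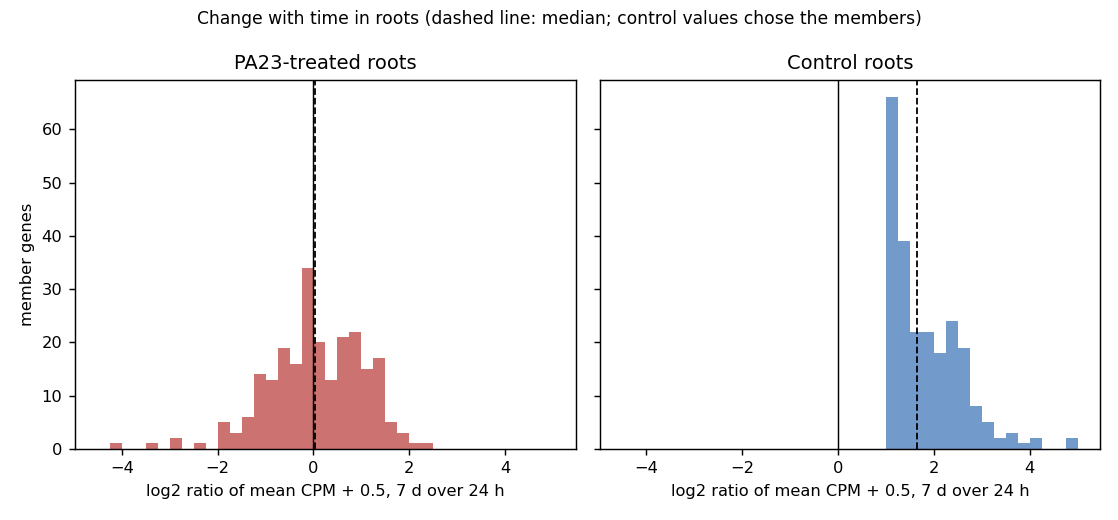
Number of member genes by log2 ratio of 7 d over 24 h in PA23-treated roots (left) and in control roots (right), over the libraries of at least 2000000 counts. The dashed line is the median, 0.03 with PA23 and 1.65 in controls; the control values were used to choose the genes, so no bar can stand below 1 on the right.

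The shoot libraries took no part in choosing the genes, and in control shoots members were called in both directions between 24 h and 7 d, more of them lower than higher at 7 d. Of the 233 members, 143 passed the filter on low counts in shoots. In control shoots 18 of them fell and 3 rose between 24 h and 7 d (edgeR adjusted p under 0.05), where 1.47% of all 56654 genes tested were called, 0.812% lower and 0.658% higher. With no filter on low counts, which brought 213 members into the test, the calls were 18 lower and 3 higher (9.86% of the members tested). That fit called 1.19% of all 77937 genes tested, 0.658% lower and 0.529% higher. Below 0 lay 99 of the 143 members (69.2%), with a median log2 fold change of -0.68, while the median of all genes tested was 0.01 and 50.9% of them lay above 0. Both tails were fuller than over all genes: 62 members (43.4%) lay at or below -1, against 5.9% of all genes, and 19 (13.3%) lay above 1, against 5.39%. Members detectable only at 24 h can pass the filter through that group, so the median and shares over those that passed are a description. The shares were also not matched for level. Over all 233 members the median was 0.47 CPM in control shoots at 24 h, against 5.68 CPM in the level window. Whether level accounts for the fuller tails was not tested.

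Single genes among the 18 were high in roots at 7 d and low in shoots at 7 d. BnaA02g02020D (A02, 913643 to 915733) had 1.34, 0 and 0.346 CPM in control shoots at 7 d, against 8.50, 10.3 and 12.1 CPM in control shoots at 24 h, and its log2 fold change was -3.87 with an SE of 0.46 (edgeR adjusted p = 4.79e-05). In roots the same gene had 67.9, 120 and 116 CPM with PA23 at 24 h, against 12.9 and 31.8 CPM in controls, and 157, 149 and 287 CPM with PA23 at 7 d, against 80.2, 211 and 142 CPM in controls. BnaC04g00770D (C04, 662679 to 663671) had 0.736, 1.18 and 0.363 CPM in control shoots at 7 d, against 7.08, 9.25 and 7.46 CPM at 24 h, and its log2 fold change was -3.89 with an SE of 0.75 (edgeR adjusted p = 0.0123). Its call was lost with DESeq2 (adjusted p = 0.0559), with close library pairs summed (edgeR adjusted p = 0.0568), without control 24 h replicate 2 (edgeR adjusted p = 0.0582) and without control 7 d replicate 3 (edgeR adjusted p = 0.0909). In both genes the control shoot libraries at 24 h and 7 d did not overlap. The share of all genes for which this held was not computed, so nothing is read from it.

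The 3 members that rose in control shoots were each highest, among 24 h roots, in PA23 replicate 1. Over all 233 members, replicate 1 was the highest of the 3 PA23 libraries at 24 h in 87 (37.3%). The pattern was noted after the values were seen, and nothing is read from 3 genes. BnaA06g26980D (A06, 18515920 to 18519844) had 13.7, 9.41 and 11.2 CPM in control shoots at 7 d, against 0, 0.544 and 0.162 CPM at 24 h, and its log2 fold change was 5.06 with an SE of 0.48 (edgeR adjusted p = 1.49e-06). In roots it had 8.02, 1.92 and 1.65 CPM with PA23 at 24 h, against 1.35 and 1.16 CPM in controls. BnaA03g15610D (A03, 7218727 to 7219609) had 5.22, 10.6 and 6.82 CPM in control shoots at 7 d, against 1.42, 1.16 and 1.00 CPM at 24 h (log2 fold change 2.63, SE 0.45, edgeR adjusted p = 0.00212). In roots it had 41.1, 6.71 and 6.35 CPM with PA23 at 24 h, against 10.2 and 2.42 CPM in controls, and 47.8, 55.1 and 43.9 CPM with PA23 at 7 d, against 21.8, 52.0 and 8.04 CPM in controls. The third, BnaA06g15140D, named after its values were seen, had 13.9, 5.88 and 13.3 CPM in control shoots at 7 d, against 4.25, 3.57 and 3.72 CPM at 24 h (log2 fold change 1.65, edgeR adjusted p = 0.0112). In roots at 24 h it had 87.1, 1.08 and 2.04 CPM with PA23, against 1.16 and 0.83 CPM in controls. The number of members called with time in control shoots, 21 in all, was 37 without control 7 d replicate 1 (29 lower, 8 higher), 8 without control 24 h replicate 2 (6 lower), 11 without control 24 h replicate 3 (9 lower), 12 without control 7 d replicate 3 (10 lower), and 11 after summing the library pairs that differed least (8 lower). Of all genes, 3.33% were called without control 7 d replicate 1 (1.45% lower, 1.87% higher), 0.391% without control 24 h replicate 2 (0.213% lower), 0.577% without control 24 h replicate 3 (0.392% lower), 0.948% without control 7 d replicate 3 (0.59% lower) and 0.525% with the pairs summed (0.264% lower).

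**Figure D4:**
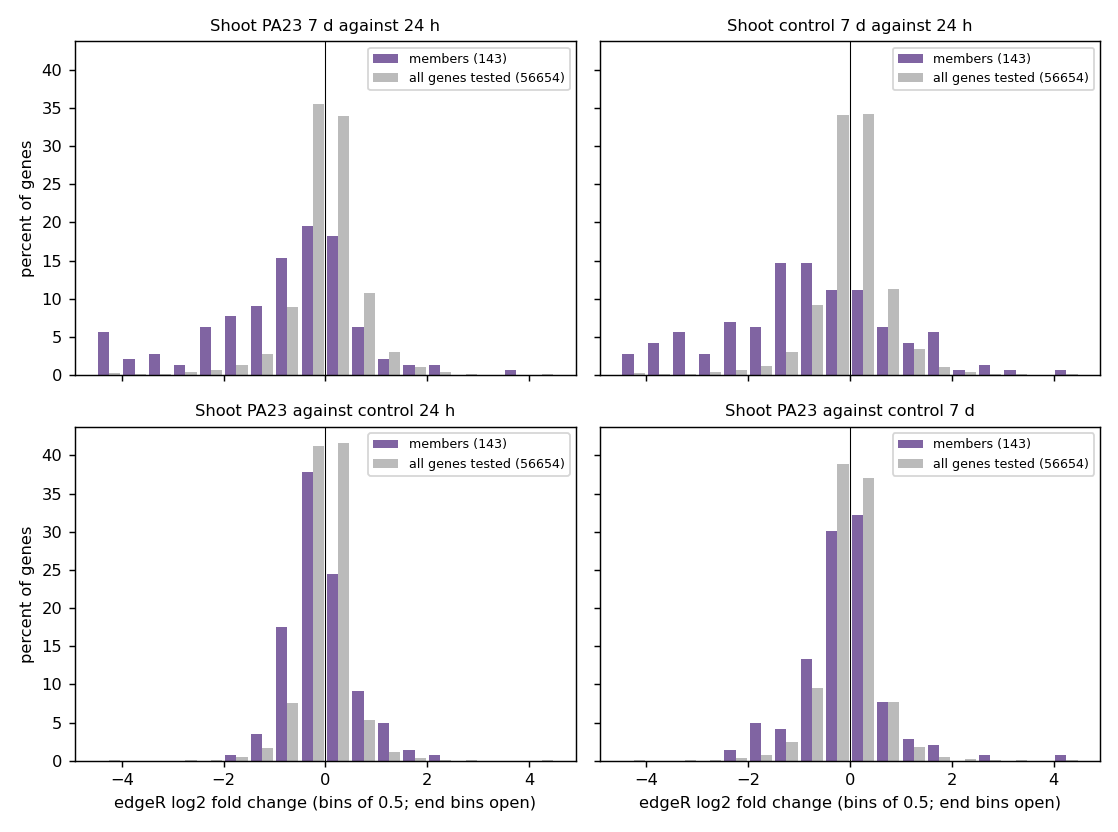
Percent of genes by edgeR log2 fold change in shoots, for the members that passed the filter (purple) and all genes tested (grey), in bins of 0.5. Members and all genes were not matched for level. In both time contrasts (top) the median of the members lies to the left of that of all genes, at -0.53 with PA23 and -0.68 in controls, and in controls members also hold a larger share than all genes above 1 (13.3% against 5.39%); for PA23 against control (bottom) the medians are -0.13 at 24 h and -0.05 at 7 d.

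PA23-treated shoots, which share no library with the control shoots, gave fewer calls, mostly lower too. Between 24 h and 7 d 9 members fell and 3 rose (edgeR adjusted p under 0.05), where 0.75% of all genes were called, 0.3% lower and 0.45% higher, and the median log2 fold change of the members tested was -0.53. All 9 that fell were among the 18 that fell in control shoots (100% of the 9 and 50.0% of the 18), and the 3 that rose were the same 3. All 18 of the control set had a log2 fold change below 0 with PA23 too, as had 100 of the 143 members tested (69.9%). Both contrasts came from the same fit, and the same overlap over all genes called was not computed. Nothing is therefore read from these overlaps. BnaA02g02020D had 0.745, 0 and 0.812 CPM with PA23 at 7 d, against 9.11, 7.44 and 7.51 CPM with PA23 at 24 h (log2 fold change -3.27, SE 0.46, edgeR adjusted p = 0.000507). BnaC04g52970D (C04_random, 631809 to 632682) had 0.417, 2.26 and 0.271 CPM at 7 d, against 3.64, 3.62 and 4.35 CPM at 24 h (log2 fold change -3.24, SE 0.60, edgeR adjusted p = 0.00692). That call was lost without PA23 7 d replicate 1 (edgeR adjusted p = 0.267), without PA23 7 d replicate 3 (0.357) and with both summed (0.258). In roots BnaC04g52970D had 31.5, 48.5 and 49.3 CPM with PA23 at 24 h, against 10.8 and 20.5 CPM in controls. BnaA06g26980D had 12.5, 11.3 and 12.4 CPM with PA23 at 7 d, against 1.82, 1.13 and 0.358 CPM at 24 h (log2 fold change 3.79, SE 0.45, edgeR adjusted p = 4.68e-05). BnaA03g15610D had 5.63, 4.53 and 4.93 CPM at 7 d, against 2.73, 0.826 and 1.79 CPM at 24 h (log2 fold change 2.05, edgeR adjusted p = 0.0295), a call lost without any 1 of the 4 deep PA23 libraries.

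Replicate 2 of the PA23 shoots at 7 d lay closer to the 24 h libraries in several of these genes. It had 11.3 CPM of BnaC04g00770D where replicates 1 and 3 had 0.536 and 0.541 CPM, and 19.3 CPM of BnaC03g02770D where they had 1.43 and 1.95 CPM. Without this library the PA23 shoots gave 28 calls with time, 25 lower and 3 higher, against 0.887% of all genes called lower and 0.917% called higher in that fit. Without all libraries under 2000000 counts they gave 24, where 1.62% of all genes were called. Replicates 1 and 3 of this group are the closest pair of the series, differing by a biological coefficient of variation of 3.40%, and the bracketed numbers in their labels both end in 3, while that of replicate 2 ends in 2. The labels do not say what these numbers mean. With that pair and the pair of control 7 d replicates 2 and 3 summed, 2 calls were left, as they were without PA23 7 d replicate 1 or without PA23 7 d replicate 3, and 5 were left without PA23 24 h replicate 2 or without PA23 24 h replicate 3. These fits called from 0.0725% to 0.395% of all genes.

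The sum over the 233 genes in shoots was 1593, 1854 and 1860 CPM in controls at 7 d, against 2488, 2954 and 2907 CPM at 24 h, with no overlap. With PA23 it was 1485, 2663 and 1500 CPM at 7 d, against 2704, 2538 and 2274 CPM at 24 h, and overlapped through replicate 2. One gene held 15.2% to 32.0% of the sum in control shoots, BnaCnng69940D, which was singled out after its values were seen. It had 367, 287 and 283 CPM in control shoots at 7 d, against 762, 945 and 918 CPM at 24 h (log2 fold change -1.52, SE 0.35, edgeR adjusted p = 0.0418). In roots it had 12.5, 17.0 and 19.3 CPM with PA23 at 24 h, against 4.91 and 9.87 CPM in controls. Without it the sum was 1226, 1567 and 1577 CPM in control shoots at 7 d, against 1726, 2009 and 1988 CPM at 24 h, still without overlap.

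**Figure D5:**
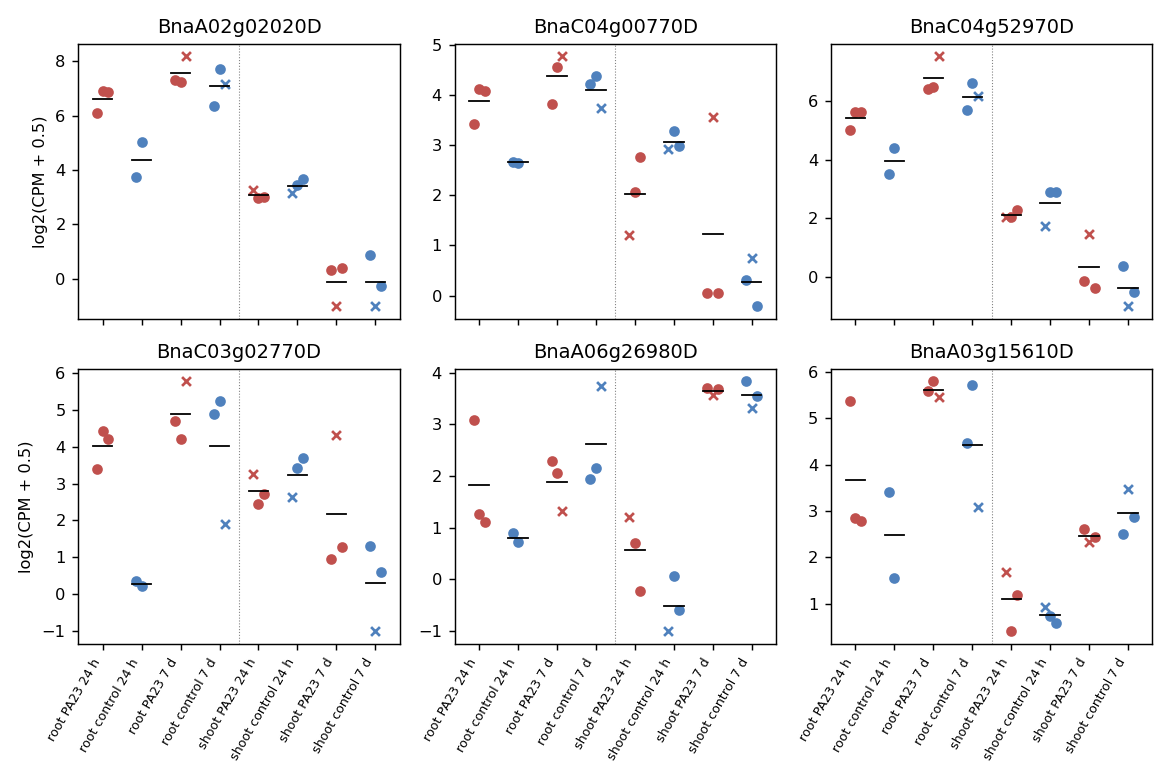
Levels of 6 members in every library, as log2(CPM + 0.5), with roots left and shoots right of the dotted line, red for PA23 and blue for LB broth control. Each point is a library, crosses mark libraries under 2000000 counts, and bars are group means. The upper row and BnaC03g02770D are lower in control shoots at 7 d than at 24 h while high in roots at 7 d, and BnaA06g26980D and BnaA03g15610D are higher in shoots at 7 d.

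No member passed the threshold for PA23 against control in shoots. At 24 h 0 of the 143 members tested were called, as were 0% of all genes (edgeR), and DESeq2 called 0. An unadjusted edgeR p under 0.05 was found for 4 members (2.8%), against 1.03% of all genes. At 7 d 0 members were called, where 0.00177% of all genes were (1 gene), and DESeq2 called 0. There 13 members (9.09%) had an unadjusted edgeR p under 0.05, against 4.72% of all genes. The median log2 fold change of the members tested was -0.13 at 24 h and -0.05 at 7 d, against -0.01 and -0.02 over all genes, and the 7 d median was 0.05 with DESeq2. Without control 7 d replicate 1 there were 3 calls among 150 members at 7 d (2.0%), all lower with PA23, in a fit where 1.26% of all genes were called and 0.956% called lower, so the share is near the background. BnaC03g02770D, which was high with PA23 in roots at 24 h, had 9.11, 4.93 and 6.08 CPM with PA23 in shoots at 24 h, against 5.66, 10.2 and 12.4 CPM in controls, so its groups overlapped there. Whether the effect of PA23 on these genes differs between roots and shoots was not tested, because its size in roots was used to choose them.

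Most members had a higher level in roots than in shoots, also in libraries that the choice did not use. In PA23-treated plants at 7 d the median log2 ratio of shoot over root was -3.29, against -0.89 in the level window. In 125 members (53.6%) no shoot group mean reached 1 CPM, against 13.6% of the window, and 20 members (8.58%) had no count in any shoot library, against 1.61%.

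The genes were spread over the genome, with a few in neighbouring runs. The A subgenome held 115 (49.4%) and the C subgenome 118 (50.6%), against 48.4% and 51.4% of the level window. Chromosomes C03 and A03, related chromosomes of the 2 subgenomes, held 24 and 19 members, which were 0.778% and 0.725% of their window genes. The share over the whole window was 0.544%. Shares on C02, A06 and A07 were similar to those on C03 and A03, at 0.786%, 0.739% and 0.736%, and C07 held 4 members (0.202%). Median gene length was 1855 bases, against 2165 bases in the window, introns included. In 7 places adjacent gene IDs were both members, 16 genes in all (6.87% of members, where 0.472% of window genes lay next to a member). Every run lay on 1 strand. Runs of 3 lay at C02, 773809 to 779631, and on the unplaced A sequence, Ann_random, 1037621 to 1043297. The log2 ratios of control 7 d over 24 h were 2.64 to 3.23 in the C02 run and 2.72 to 2.92 in the Ann run. Whether the genes of a run are alike in sequence and share reads was not tested.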

How the data were processed

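Per the submitters' processing notes, HISAT2 and DESeq2 were used; no versions, counting tool, strand setting, genome build or annotation are given in the sources used here. The deposited table holds whole-number counts per gene ID from the authors, not scaled for depth, with each gene's span and its length. Low counts were mostly even (18.9% to 33.6% of counts from 1 to 10 were odd in 22 libraries, and 57.6% in root PA23 7 d replicate 1), and whether both mates of a pair were counted is not given, so limits from counts cover counting error only. A count of 1 is 0.0014 CPM in the deepest library and 1.61 CPM in the shallowest, where a level of 0 allows up to 4.82 CPM (3 counts).

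The genes were chosen from CPM over column totals. The count tests used edgeR 4.0.16 under R 4.3.3: filterByExpr, TMM scaling, one robust quasi-likelihood fit per tissue over its 4 groups, and Benjamini-Hochberg adjustment over all genes tested. The SE is the log2 fold change divided by the square root of F. The fits were first tested on simulated counts for PA23 against control at 24 h, in which 200 genes were changed 4-fold. In shoots 195 of the 200 were recovered, with 24 false calls among 55599 genes. In roots 193 of the 200 were recovered, with 28 false calls among 62380 genes. Counts of called genes given here may therefore include false calls too. The changed genes were drawn only from genes above a set mean level in the tissue, and simulated libraries were drawn as independent. The median member lay below that level in shoots at 24 h, with 0.55 CPM with PA23 and 0.47 CPM in controls. The recovery therefore does not describe members at such low levels, and the missing calls in shoots are not judged by it. DESeq2 1.42.0 and the other alternatives are reported with the processing alternatives.

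Deviations of same-numbered libraries from their group means correlated above 0.1 for all 3 numbers only between PA23 roots at 24 h and at 7 d (r = 0.39, 0.20 and 0.18 over genes), a pairing that comes from the data and not from the labels; the fit with the number as a block is given there. The genes, the rules and the alternatives were chosen with earlier results of these data known. The named genes are those matched to RefSeq, the 2 largest by each ratio of the rule, and the 2 highest and 2 lowest members called in each shoot contrast with at least 1 CPM on average. A condition of that rule on gene descriptions could not be applied, so all 3 matched genes are named. Gene descriptions, promoter motifs and tissue markers are not analysed here. No sample column of the table was left unused.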

Additional observations from a re-analysis of the deposited data

Results flagged for a closer look

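The summed level of the 233 genes in controls changed with time in opposite directions in the 2 tissues, with every library on its side. In roots it averaged 8051 ± 1779 CPM at 7 d (SD, n = 3) and 1954 ± 8.02 CPM at 24 h (SD, n = 2), a log2 ratio of 2.04, and each 7 d library lay above each 24 h library. In shoots it averaged 1769 ± 152 CPM at 7 d and 2783 ± 257 CPM at 24 h (SD, n = 3 each), a log2 ratio of -0.65, and each 7 d library lay below each 24 h library. The root values were used to choose the genes, so the rise in the deep root libraries follows from that choice. For that reason the difference between the tissues was not tested.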

How the results depend on the processing

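The rule gave 233 genes, and between 179 and 401 when 1 library was left out (401 without control 24 h replicate 2, with 190 of the 233 among them). It gave 57 with both thresholds at 1.5, and 108 when each PA23 24 h library had to pass, an alternative chosen after the data were seen, as was the median of libraries (192). Summing the closest pairs of libraries gave 11 members called, against 21, with time in control shoots, 2 against 12 with time in PA23 shoots, 9 against 42 for PA23 in roots at 24 h and 16 against 37 with time in PA23 roots. In that order, the summed fits called 0.525%, 0.0725%, 0.0411% and 2.68% of all genes. Leaving out the libraries under 2000000 counts gave 24 with time in PA23 shoots. DESeq2 gave 2 for PA23 in roots at 7 d and 59 with time in PA23 roots, and the label prefix as a covariate gave 21 for the last. Without 1 library the calls ran from 8 to 37 with time in control shoots and 2 to 28 in PA23 shoots, 0 to 3 for PA23 in shoots at 7 d, 6 to 45 for PA23 in roots at 24 h, 0 to 12 at 7 d, 45 to 122 with time in control roots and 14 to 48 in PA23 roots. In that order, the fits with the most member calls called 3.33%, 1.8%, 1.26%, 0.233%, 0.866%, 2.67% and 9.1% of all genes. Member calls stayed at 0 for PA23 in shoots at 24 h in every fit run. The log2 ratio of BnaA06g13740D at 24 h ran from -0.38 without PA23 replicate 1 to 1.59 without PA23 replicate 2. Same-numbered libraries deviated together in 1 of 12 pairs of groups, PA23 roots at 24 h and 7 d; in the others at least 1 r was at or below 0.1. With a replicate block the members called were 24 and 10 with time in control and PA23 shoots, 45 for PA23 in roots at 24 h, 105 and 42 with time in control and PA23 roots, and 0 in the other contrasts. Of all genes, the block called 1.3% and 0.607% with time in control and PA23 shoots, and 0.165% for PA23 in roots at 24 h. With time in control and PA23 roots it called 0.943% and 5.06%. The causes of these changes were not tested. At 1.61 CPM a count, the shallowest library carries little on genes below that level.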
